A study of Mus musculus with 6 samples.

Results

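Transcripts of pericytes, vascular smooth muscle cells and fibroblasts were followed in 6 RNA-seq libraries of oligodendrocyte progenitor cells (OPCs) of the mouse. OPCs divide and mature into oligodendrocytes, which make myelin. The genes were picked by symbol from a fixed list of 35, out of 24421 genes listed in the count tables. They comprise 11 pericyte genes, 7 contractile genes of smooth muscle, 13 genes of fibroblasts and the leptomeninges (the inner coverings of the brain), and 4 genes of matrix glycoproteins. All 35 had counts in every library and passed the filter on low counts, as did 15906 genes in all. Levels are given in CPM, the counts of a gene scaled to a common total of gene counts per library.

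Pericytes sit in the wall of capillaries and are drawn there by PDGF-B, which endothelial cells release and which binds the receptor Pdgfrb on the pericyte. Smooth muscle cells wrap arteries and arterioles and contract by an actin and myosin apparatus that pericytes hold at much lower levels. Fibroblasts of the leptomeninges and of the space around vessels secrete collagens, proteoglycans and retinoic acid. None of these cells belongs to the oligodendrocyte lineage, although Sparc is also made by glia, Ptgds also by oligodendrocytes, and Zic1 also by dorsal neural progenitors.

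The control group was 3 libraries of Prrc2bf/f mice, in which both alleles of Prrc2b carry loxP sites and no Cre is present. The knockout group was 3 libraries of Prrc2bf/f; Olig2-Cre mice, in which the Cre acts in cells with Olig2 expression and their descendants. By the labels' protocols, cortical cells of C57BL/6J pups of postnatal day 4 were panned on GalC and then on O4 antibody. The cells were then grown in a proliferation medium with PDGF-AA, bFGF, CNTF, NT3, insulin, forskolin, NAC, D-biotin, pyruvate, Glutamax, N2 and B27, and the series' design text names brain tissue instead. No library carried the Cre without the floxed alleles, so an effect of the Cre cannot be told apart from one of Prrc2b loss. Both groups bear the replicate numbers 1, 2 and 3, and the labels do not say whether replicates are separate animals, so a p-value reflects no more than how these libraries scatter.

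The libraries held between 26015604 and 28114968 gene counts. Prrc2b, which encodes an RNA-binding protein of the PRRC2 family, stood at 928, 1080 and 931 CPM in the controls and 653, 826 and 771 CPM in the knockouts, so every knockout library was below every control library. The 13 OPC markers, Pdgfra, Olig1, Olig2 and Sox10 among them, had counts in every library and summed to 2712 to 4681 CPM in the controls and 2771 to 5539 CPM in the knockouts. Endothelial markers summed to 128 to 341 and 183 to 759 CPM, choroid plexus and ependymal markers to 457 to 2152 and 977 to 3141 CPM, and microglial markers to 19.0 to 306 and 18.2 to 313 CPM. Neuronal markers summed to 3809 to 5100 and 3410 to 4884 CPM, and astrocyte markers to 1657 to 3066 and 1979 to 3630 CPM. The neuronal sum was above the OPC sum in library 2 of both genotypes and in control library 3 (4088 against 4013 CPM). These sums cover unlike genes and are not scaled to gene length, so they do not rank the cell types by amount. The panned cultures thus held transcripts of several other cell types in both groups. In such bulk RNA, fewer cells of a type and less RNA per cell cannot be told apart.

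The 35 genes differed mostly by replicate number and little by genotype. Summed over all 35, they reached 1064, 746 and 1937 CPM in the control libraries 1, 2 and 3, and 1176, 885 and 2799 CPM in the knockouts 1, 2 and 3. The library numbered 3 was the highest of its group for 29 of the 35 genes in both genotypes. That held for 11 of 11 pericyte genes, 12 of 13 fibroblast genes, 3 of 4 matrix genes and only 3 of 7 contractile genes. How many of all genes tested had this order was not counted. A test for any difference between the 3 numbers, added after the values had been seen, passed for 29 of the 35 genes (edgeR adjusted p under 0.05), and for 51.2% of all genes tested. Des, Cnn1, Tpm2, Foxc2, Zic1 and Fbln2 did not pass it. Among these, Des, Foxc2 and Fbln2 were still highest in library 3 of both genotypes, so the 2 counts of 29 cover different genes.

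**Figure D1:**
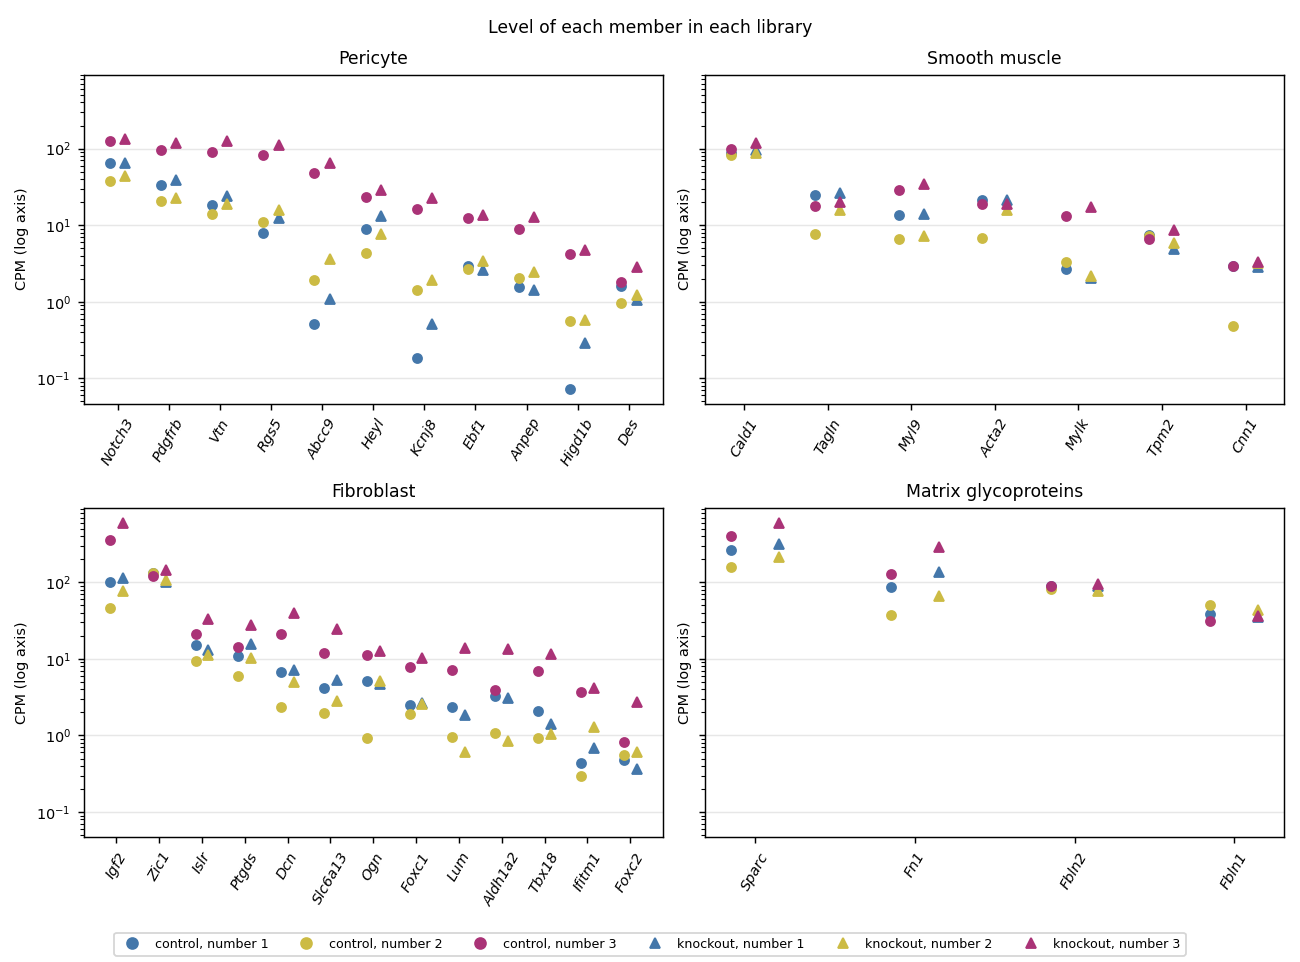
CPM of each of the 35 genes in each library, on a log axis, with genes ordered by mean level within their group. Circles are control and triangles knockout libraries, and colours are replicate numbers. The libraries numbered 3 lie highest for 29 genes in both genotypes, while Acta2, Tagln, Cnn1, Tpm2, Zic1 and Fbln1 follow another order in control or knockout.

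Per kilobase of exon, which allows levels of different genes to be compared, the mean over the 6 libraries ran from 0.340 CPM for Foxc2 to 85.5 CPM for Sparc. Igf2 came next at 37.4 CPM per kilobase, followed by Vtn at 23.8, Zic1 at 21.6 and Myl9 at 15.1. Pdgfrb stood at 9.99 and Notch3 at 9.70 CPM per kilobase, and Tagln at 9.46 and Acta2 at 7.86. Cnn1, a late marker of contractile smooth muscle, was at 0.955 and Des, the muscle-type intermediate filament, at 0.421 CPM per kilobase. The differences among Pdgfrb, Notch3, Tagln and Acta2 were smaller than the spread of each over the 6 libraries.

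Pericyte genes stood several times higher in the libraries numbered 3 of both genotypes. Their summed level was 141, 97.4 and 508 CPM in the control libraries 1, 2 and 3, and 161, 122 and 636 CPM in the knockout libraries of the same numbers. Library 3 thus stood at 4.26 times the mean of libraries 1 and 2 in control and at 4.51 times in knockout. The group means were 249 ± 225 CPM in the controls and 306 ± 286 CPM in the knockouts (SD, n = 3 each). The spread within a genotype was larger than the difference between the genotypes.

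Pdgfrb, the receptor that recruits pericytes, had 33.4, 20.7 and 96.2 CPM in the controls and 38.5, 22.3 and 117 CPM in the knockouts. The groups overlapped, and each knockout library was slightly above the control library of its number. The log2 fold change, knockout over control, was 0.22 (SE 0.75), and 0.18 (SE 0.07, adjusted p = 0.195 by edgeR) with the replicate number as a block. Rgs5 (ENSMUSG00000026678.10, chromosome 1, 169655501 to 169695813 of GRCm38, plus strand) encodes a regulator of G protein signalling and is among the most specific pericyte transcripts of the brain. It had 7.97, 11.0 and 82.8 CPM in the controls and 12.2, 15.6 and 112 CPM in the knockouts. Only the libraries numbered 3 were high, and the groups overlapped. Its log2 fold change was 0.44 (SE 1.16) without the block, and it rose by 0.49 (SE 0.08, adjusted p = 0.0140 by edgeR) with it.

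Vtn (ENSMUSG00000017344.4, chromosome 11, 78499091 to 78502324, plus strand) encodes vitronectin, an adhesion protein of plasma and matrix that brain pericytes secrete. Its level was 18.2, 14 and 89.1 CPM in the controls and 24.3, 18.9 and 125 CPM in the knockouts. The order of the libraries was the same in both genotypes, number 3 far above number 1 and number 1 above number 2. The log2 fold change was 0.45 (SE 0.96) without the block and 0.42 (SE 0.07, adjusted p = 0.0131 by edgeR) with it, and the 3 pairs gave 0.41, 0.42 and 0.49. Rgs5 and Vtn lost the call when the pair numbered 3 was left out (edgeR adjusted p 0.172 and 0.205), at log2 fold changes of 0.53 and 0.40 that were near those with it. Notch3, a Notch receptor of mural cells, had 65.6, 37.9 and 125 CPM in the controls and 65.6, 44.0 and 132 CPM in the knockouts. It was the least different of the abundant pericyte genes between genotypes, with a blocked log2 fold change of 0.07 (SE 0.06, adjusted p = 0.588 by edgeR).

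Abcc9 and Kcnj8, the 2 subunits of the ATP-sensitive potassium channel of pericytes, showed the largest differences between replicate numbers. Abcc9, the sulfonylurea receptor subunit, had 0.514, 1.93 and 48.1 CPM in the controls and 1.10, 3.60 and 64.0 CPM in the knockouts. Library 3 stood at 39.4 times the mean of libraries 1 and 2 in control and 27.2 times in knockout. Kcnj8, the pore subunit, had 0.184, 1.41 and 16.1 CPM against 0.513, 1.93 and 22.6 CPM, which is 20.3 and 18.5 times. The genes are neighbours on chromosome 6, on the minus strand, Kcnj8 from 142564837 to 142571614 and Abcc9 from 142587862 to 142702315. Neither passed the blocked test of genotype (edgeR adjusted p 0.0543 for Abcc9 and 0.205 for Kcnj8), though DESeq2 with the block called Abcc9 (adjusted p = 0.0354).

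The other pericyte genes were low. Higd1b, a mitochondrial membrane protein gene, stood at 13.3 times in control library 3 and 11.0 times in knockout library 3, on counts as low as 2 in control library 1. Anpep, the aminopeptidase CD13, stood at 4.88 and 6.50 times, the transcription factor Ebf1 at 4.44 and 4.55 times, and Heyl, a transcriptional target of Notch signalling, at 3.44 and 2.80 times. Heyl had 9.04, 4.37 and 23.1 CPM in the controls and 13.0, 7.56 and 28.8 CPM in the knockouts, higher in knockout in all 3 pairs. Its blocked log2 fold change of 0.50 (SE 0.13) missed the threshold (adjusted p = 0.0640 by edgeR) and passed it when no filter was applied (0.0307). Des, between 0.964 and 2.81 CPM, had no difference between numbers that passed the test (adjusted p = 0.136 by edgeR).

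**Figure D2:**
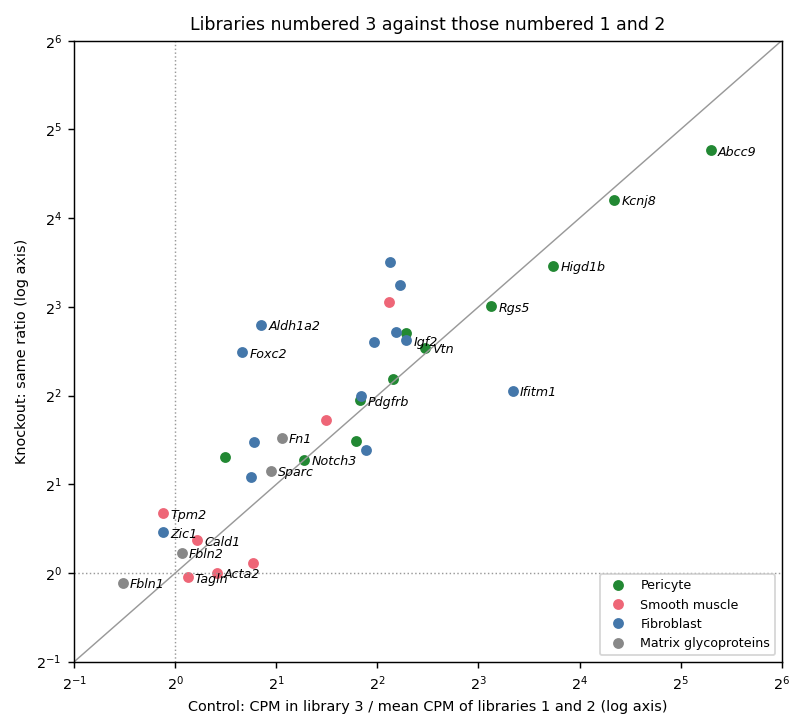
Each point is a gene, with the ratio of CPM in library 3 to the mean of libraries 1 and 2 in control on the horizontal axis and in knockout on the vertical axis, both on log axes, and the diagonal marks equal ratios. Pericyte genes reach 39.4 in control and 27.2 in knockout (Abcc9), while Zic1, Tpm2, Cald1, Fbln1, Fbln2, Acta2 and Tagln lie between 0.697 and 1.59 on both axes.

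The ratio of library 3 to libraries 1 and 2 was alike in the 2 genotypes across the 35 genes (Pearson r = 0.888 for the log2 ratios with 0.5 CPM added, a description across genes, which are not independent replicates). Across all genes tested it was 0.737. The ratio was above 2 in both genotypes for 21 of the 35 genes, against 652 of all genes tested, or 4.1%. The 21 were 10 of 11 pericyte genes, 8 of 13 fibroblast genes, 2 of 7 contractile genes and 1 of 4 matrix genes. The choice of library 3 for this ratio was made after its values were seen, so it has no test here.

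Contractile genes of smooth muscle did not share one pattern. Summed, the 7 genes had 161, 114 and 186 CPM in the controls and 168, 136 and 221 CPM in the knockouts, library 3 at only 1.35 and 1.45 times the mean of libraries 1 and 2. Acta2 (chromosome 19, 34241090 to 34255590, minus strand), smooth muscle alpha-actin, had 21.5, 6.90 and 18.9 CPM in the controls and 21.5, 15.9 and 18.8 CPM in the knockouts. Control library 2 stood apart below the other 5, which lay between 15.9 and 21.5 CPM. The pairs numbered 1 and 3 had nearly equal levels in the 2 genotypes (log2 ratio 0.00 in pair 1), and pair 2 had a log2 ratio of 1.15. The blocked log2 fold change was 0.34 (SE 0.20, adjusted p = 0.434 by edgeR), and -0.02 without the pair numbered 2.

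Tagln, transgelin, an actin-binding protein of smooth muscle, repeated the profile of Acta2. Its levels were 25.1, 7.75 and 17.9 CPM in the controls and 26.2, 15.7 and 20.2 CPM in the knockouts, again lowest in control library 2. Its blocked log2 fold change was 0.37 (SE 0.16, adjusted p = 0.272 by edgeR), and the opposite-strand gene Pcsk7, at 55.3 CPM, overlaps it, so its counts are uncertain where strand was not used. Cnn1, calponin, had 2.94, 0.482 and 2.92 CPM in the controls and 2.86, 3.21 and 3.27 CPM in the knockouts. It too was low only in control library 2, and its blocked log2 fold change was 0.72 (adjusted p = 0.456 by edgeR).

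Myl9 (chromosome 2, 156775420 to 156781658, plus strand), the regulatory light chain of smooth muscle myosin, followed the pericyte genes instead. It had 13.8, 6.67 and 28.8 CPM in the controls and 14, 7.21 and 35.0 CPM in the knockouts, highest in library 3 and lowest in library 2 of both genotypes. The blocked log2 fold change was 0.12 (SE 0.11, adjusted p = 0.625 by edgeR). Mylk, the kinase that phosphorylates this light chain, had 2.68, 3.30 and 13.0 CPM against 2.05, 2.18 and 17.5 CPM, with library 3 at 4.34 and 8.29 times. The light chain and its kinase were thus highest in library 3 of both genotypes, which actin, transgelin and calponin were not.

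Many promoters of contractile genes are known to carry CArG boxes, the sites bound by serum response factor (Srf), and the boxes of Acta2 and Myl9 are shown because these 2 genes had unlike profiles. Boxes were searched as CC, then 6 bases of which at most 1 is not A or T, then GG, a pattern that reads alike on both strands, in the 250 bases before each start of the RefSeq promoter table (GRCm38.p6). Of 32851 promoters, 8.59% held such a box and 1.47% one with 6 bases of A or T. Of the 35 genes 27 were in the table, 6 of them contractile, and Tagln was not. Acta2 and Myl9 were the contractile genes with a box, and Igf2, Fbln2 and Tbx18 held boxes as well. Of the 35 promoters listed for the 27 genes, 5 held a box. In 2 of them, of Myl9 and Igf2, a box had 6 bases of A or T. The stretch of Myl9 lies at chr2:156775214-156775419 (plus strand), and the 2 sites of Acta2 at chr19:34255438-34255467 and chr19:34255388-34255417 (minus strand), with boxes in capitals, 5′ to 3′.
Myl9: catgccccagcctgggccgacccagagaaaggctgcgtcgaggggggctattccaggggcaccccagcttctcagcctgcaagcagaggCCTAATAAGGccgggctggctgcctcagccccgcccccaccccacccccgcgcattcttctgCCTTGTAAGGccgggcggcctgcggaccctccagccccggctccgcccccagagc
Acta2 site 1: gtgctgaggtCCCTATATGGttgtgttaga
Acta2 site 2: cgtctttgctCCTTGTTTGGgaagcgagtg
The first box of Myl9 is the one of the 4 with only A and T between CC and GG. The boxes begin 161 and 99 bases before the RefSeq start of Myl9, and 84 and 34 bases before that of Acta2. GENCODE places the start of Acta2 a further 217 bases upstream, so that both of its boxes fall within that annotation's bounds of the gene. A match of letters is no measure of binding. Srf itself had 206, 171 and 307 CPM in the controls and 173, 158 and 265 CPM in the knockouts, and fell by 0.22 (SE 0.04, adjusted p = 0.0174 by edgeR) with the block, a call lost without the pair numbered 3 (0.125), where the log2 fold change was -0.21.

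Cald1, caldesmon, was the most abundant contractile gene by CPM and the most even. It had 87.6, 82.0 and 98.3 CPM in the controls and 96.5, 86.3 and 118 CPM in the knockouts, means of 89.3 ± 8.30 and 100 ± 16.1 CPM (SD, n = 3 each). Its blocked log2 fold change was 0.13 (SE 0.06, adjusted p = 0.263 by edgeR). Tpm2, beta-tropomyosin, lay between 4.87 and 8.57 CPM in all libraries and differed neither by number (adjusted p = 0.518 by edgeR) nor by genotype (0.688) beyond the threshold. Both genes are expressed in many cells beside muscle. With the block, 0 of the 7 contractile genes rose, against 1.57% of all genes tested, 0 fell, against 2.23%, and 7 did not pass, with a median log2 fold change of 0.13. DESeq2 also called 0 of the 7, and 2 had an unadjusted edgeR p under 0.05.

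Fibroblast and leptomeningeal genes were also highest in library 3, most of all in knockout. Their summed level was 284, 205 and 588 CPM in the controls and 272, 227 and 930 CPM in the knockouts, library 3 at 2.40 times the mean of the others in control and 3.73 times in knockout. The ratio of knockout to control was 0.956 in pair 1, 1.11 in pair 2 and 1.58 in pair 3. Igf2 and Zic1 had the highest mean levels of the 13 genes, 214 and 123 CPM, and weigh most in these sums. Zic1 went from 131 CPM in control to 101 CPM in knockout in pair 1. Knockout exceeded control for 6 of the 13 genes in pair 1, 10 in pair 2 and 13 in pair 3. The group means were 359 ± 202 and 476 ± 394 CPM (SD, n = 3 each). With the block, 2 of the 13 genes rose, Igf2 and Ptgds, against 1.57% of all genes tested, and 0 fell, against 2.23%.

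Igf2 (ENSMUSG00000048583.16, chromosome 7, 142650766 to 142666816, minus strand) encodes insulin-like growth factor 2, a growth factor of the leptomeninges, choroid plexus and vessels. It had 100, 46.0 and 356 CPM in the controls and 115, 77.5 and 591 CPM in the knockouts. Library 3 was highest and library 2 lowest in both genotypes, and the groups overlapped. Its log2 fold change was 0.62 (SE 0.97) without the block, and it rose by 0.53 (SE 0.09, adjusted p = 0.0158 by edgeR) with it. That call was lost without the pair numbered 3 (log2 fold change 0.44, adjusted p = 0.107 by edgeR) and with DESeq2 and the block (0.0567).

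Ptgds (ENSMUSG00000015090.13, chromosome 2, 25466709 to 25470046, minus strand) encodes prostaglandin D2 synthase, which leptomeningeal cells and oligodendrocytes secrete. Its levels were 11.0, 5.97 and 14.2 CPM in the controls and 15.6, 10.2 and 27.4 CPM in the knockouts. Each knockout library was above the control library of its number, with log2 ratios of 0.49, 0.73 and 0.92, and the groups still overlapped. The log2 fold change was 0.75 (SE 0.44) without the block and 0.72 (SE 0.13, adjusted p = 0.0181 by edgeR) with it. This call was also lost without the pair numbered 3 (adjusted p = 0.148 by edgeR), where the log2 fold change was 0.61.

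The small proteoglycans of fibroblasts were low outside library 3. Dcn, decorin, had 6.80, 2.37 and 20.8 CPM in the controls and 7.25, 5.00 and 40.2 CPM in the knockouts. Its blocked log2 fold change of 0.67 (SE 0.18) missed the threshold with edgeR (adjusted p = 0.0782), and passed it with DESeq2 (0.0337) or without the pair numbered 1 (adjusted p = 0.00473 by edgeR). Lum, lumican, had 2.35, 0.964 and 7.22 CPM against 1.87, 0.607 and 14 CPM, lower in knockout in pairs 1 and 2 and higher in pair 3. Ogn, osteoglycin, was at 0.927 CPM in control library 2 and between 4.69 and 12.8 CPM in the other 5. Its counts are uncertain, since Cenpp overlaps it on the opposite strand at 6.68 CPM, near the 6.62 CPM of Ogn. Dcn, Lum and Ogn did not pass the blocked edgeR test.

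Transcription factors and enzymes of meningeal fibroblasts differed in profile. Foxc1, which meningeal development requires, stood at 3.58 times the mean of libraries 1 and 2 in control library 3 and 3.97 times in knockout library 3, and Tbx18, a mural and meningeal factor, at 4.66 and 9.52 times. Aldh1a2, which makes retinoic acid, had 3.23, 1.08 and 3.88 CPM in the controls and 3.04, 0.856 and 13.5 CPM in the knockouts, so that knockout library 3 alone was high. Foxc2 did the same at a lower level, from 0.366 to 0.818 CPM in 5 libraries and 2.73 CPM in knockout library 3. Slc6a13, a GABA transporter of the leptomeninges, had 4.15, 1.97 and 12 CPM against 5.35, 2.78 and 24.7 CPM, higher in knockout in all 3 pairs (blocked log2 fold change 0.66, adjusted p = 0.0798 by edgeR). Ifitm1 lay between 0.297 and 4.11 CPM and was highest in library 3 of both genotypes.

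Islr, a secreted leucine-rich repeat protein, had 15.2, 9.45 and 21.2 CPM in the controls and 13.0, 11.2 and 33.6 CPM in the knockouts, a blocked log2 fold change of 0.21 (SE 0.16, adjusted p = 0.532 by edgeR). It overlaps Islr2 on the same strand, a gene at 610 CPM, so part of its count may be unassigned or misassigned. Zic1, a zinc finger factor of the meninges and of neural progenitors, had another profile, and is overlapped on the opposite strand by Zic4, at 13.6 CPM. Its levels were 131, 133 and 121 CPM in the controls and 101, 109 and 144 CPM in the knockouts, with no difference between numbers that passed the test (adjusted p = 0.410 by edgeR). It was lower in knockout in pairs 1 and 2 and higher in pair 3, and its blocked log2 fold change was -0.16 (SE 0.10, adjusted p = 0.467 by edgeR). Without the pair numbered 3 it fell by 0.35 (adjusted p = 0.0375 by edgeR).

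Of the matrix glycoproteins, fibronectin and osteonectin were higher in knockout and the fibulins were not. Fn1 (ENSMUSG00000026193.15, chromosome 1, 71585520 to 71653200, minus strand) encodes fibronectin, an adhesive protein of vessel walls and of the provisional matrix. It had 87.9, 37.3 and 130 CPM in the controls and 136, 67.1 and 292 CPM in the knockouts. Every knockout library was above the control library of its number, with log2 ratios of 0.63, 0.84 and 1.17, while the groups overlapped because knockout library 2 was below control libraries 1 and 3. The means were 85.0 ± 46.3 and 165 ± 115 CPM (SD, n = 3 each), a log2 fold change of 0.94 (SE 0.61) without the block. With the block it rose by 0.86 (SE 0.09, adjusted p = 0.00258 by edgeR), and it kept the call without each pair in turn (adjusted p up to 0.00456).

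Sparc (ENSMUSG00000018593.13, chromosome 11, 55394500 to 55423183, minus strand) encodes osteonectin, a collagen-binding protein of endothelial, mural and glial cells. It had 263, 159 and 406 CPM in the controls and 316, 213 and 587 CPM in the knockouts. The pairs gave log2 ratios of 0.27, 0.42 and 0.53, and the groups overlapped. Its log2 fold change was 0.41 (SE 0.44) without the block. With the block it rose by 0.38 (SE 0.05, adjusted p = 0.00647 by edgeR), a call kept without each pair in turn (adjusted p up to 0.0375).

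Of the 2 fibulins, elastic fibre proteins, only Fbln2 was nearly level over the libraries. Fbln1 had 38.1, 50.5 and 30.9 CPM in the controls and 35.3, 43.3 and 36.3 CPM in the knockouts, highest in library 2 of both genotypes. Fbln2 had 88.7, 82.3 and 89.3 CPM against 88.1, 75.9 and 95.8 CPM. Their blocked log2 fold changes were -0.06 (SE 0.10) and -0.03 (SE 0.06), with edgeR adjusted p of 0.794 and 0.825.

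Counted over all 35 genes, the comparison of genotypes rested on the pairing of the libraries. Without the block, 0 of the 35 genes passed the edgeR test, as did 0% of all genes, each of the 35 had an adjusted p of 1.00, and 0 had an unadjusted p under 0.05. DESeq2 without the block also called 0 of the 35. With the replicate number as a block, 6 of the 35 genes rose (Rgs5, Vtn, Igf2, Ptgds, Fn1 and Sparc), against 1.57% of all genes, 0 fell, against 2.23% of all genes, and 29 did not pass. The median log2 fold change of the 35 was 0.34 with the block and 0.39 without it, where that of all genes tested was 0.00. By group the blocked medians were 0.33 for pericyte, 0.13 for contractile, 0.61 for fibroblast and 0.17 for matrix genes. Without the pair numbered 3 these medians were 0.40, 0.079, 0.22 and 0.11, and that of the 35 genes 0.22. Without that pair the blocked test, which then called 174 genes in all against 604 with 3 pairs, called Fn1 and Sparc as higher and Zic1 as lower.

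In CPM, 19 of the 35 genes were higher in knockout in all 3 same-numbered pairs, against 23.9% of all genes tested. The 19 were 8 of 11 pericyte genes, 3 of 7 contractile genes, 6 of 13 fibroblast genes and 2 of 4 matrix genes. Knockout exceeded control for 20 of the 35 genes in pair 1, 28 in pair 2 and 34 in pair 3. For 0 of the 35 genes did all libraries of one genotype lie on one side of the other, against 6.11% of all genes tested.

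**Figure D3:**
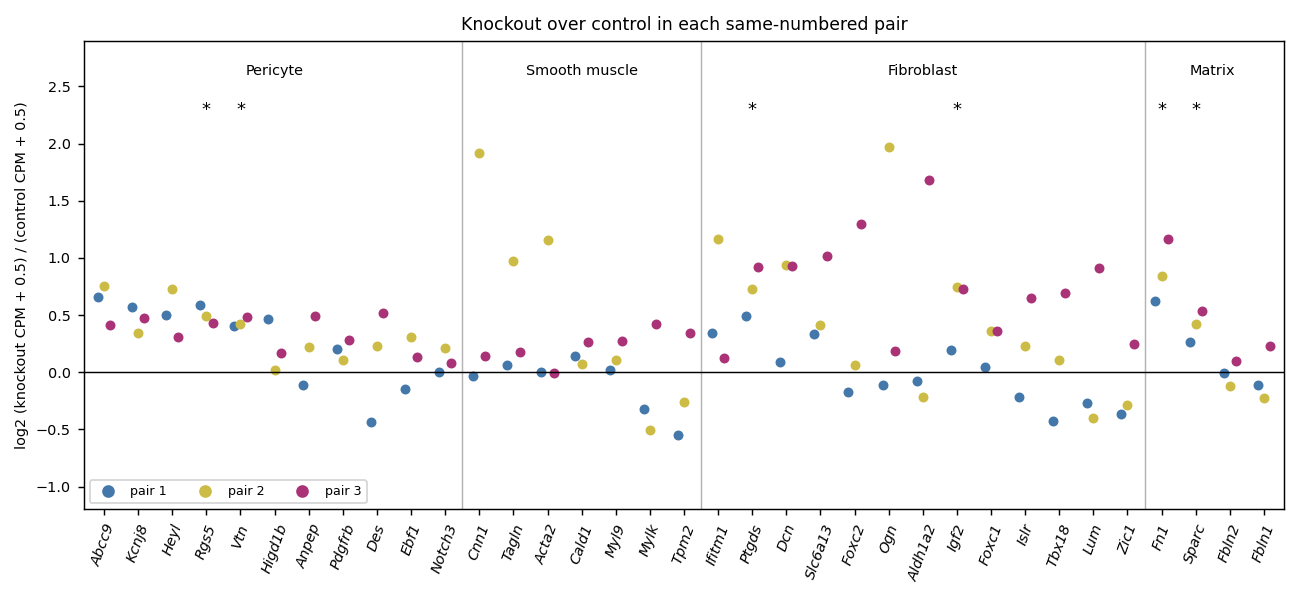
Log2 ratio of knockout to control CPM, each with 0.5 CPM added, for each gene in each same-numbered pair. Colours are pairs and asterisks mark genes with an edgeR adjusted p under 0.05 with the replicate block. Pair 3 lies above 0 for 34 of 35 genes, and the 6 genes with an asterisk lie above 0 in all 3 pairs.

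Related genes outside the 35 went through the same blocked test, in which 1.57% of all genes tested rose and 2.23% fell. Of 16 other pericyte genes, 0 rose and 0 fell with the block by edgeR or by DESeq2, and 2 had an unadjusted edgeR p under 0.05. Cspg4, which is among these 16 at a mean of 140 CPM, is also in the list of OPC markers. Of 12 tested other smooth muscle genes Srf fell, by edgeR and DESeq2, and 0 rose. For 2 of these 12 the groups did not overlap, against 6.11% of all genes tested. They were Lmod1, leiomodin, at 1.19 to 1.80 CPM in control against 2.45 to 2.75 CPM in knockout, and Mustn1, at 0.334 to 0.534 against 0.696 to 0.961 CPM. Their blocked log2 fold changes of 0.72 and 0.98 did not pass (edgeR adjusted p 0.235 and 0.311). Of 21 tested other fibroblast genes Bgn, the proteoglycan biglycan, rose by 0.48 (SE 0.08, adjusted p = 0.0140 by edgeR), and without the pair numbered 3 had 0.40 (0.165). Slc13a4, a sulfate transporter, at a log2 fold change of 1.04, was called by DESeq2 (adjusted p = 0.0223) and not by edgeR (0.0904), and Mgp, matrix Gla protein, at 1.02, by neither (edgeR adjusted p = 0.0501). The other fibroblast genes had a blocked median of 0.33, close to the 0.34 of the 35 genes. Of the 21 tested, 10 (47.6%) were higher in knockout in all 3 pairs, against 23.9% of all genes tested. Of 22 genes of PDGF-B, Notch and TGF-beta signalling, which recruit mural cells and mature them, 2 rose. They were Tgfbr2, a TGF-beta receptor, by 0.60 (SE 0.12, adjusted p = 0.0310 by edgeR), and S1pr1, the sphingosine-1-phosphate receptor, by 0.30 (SE 0.05, adjusted p = 0.0213 by edgeR). DESeq2 with the block also called Acvrl1, another receptor of the TGF-beta family, at 1.01 (adjusted p = 0.0259, edgeR 0.0551). By edgeR, Tgfbr2 lost the call without the pair numbered 3 (0.267, log2 fold change 0.46) and S1pr1 without the pair numbered 1 (0.0751). Pdgfb, the ligand of Pdgfrb, had 10.1, 35.7 and 64.4 CPM in the controls and 10.5, 33.0 and 76.1 CPM in the knockouts, a blocked log2 fold change of 0.04 (adjusted p = 0.873 by edgeR).

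Markers of some other cell types also differed between the genotypes. Of 23 endothelial markers, all with counts in every library, 15 rose and 0 fell with the block, against 1.57% and 2.23% of all genes tested. Of these markers 5 (Cdh5, Kdr, Flt1, Tie1 and Cldn5) were called without the pair numbered 3. Their summed level was 285, 128 and 341 CPM in the controls and 429, 183 and 759 CPM in the knockouts, knockout over control 1.51, 1.43 and 2.23 in pairs 1, 2 and 3. For pericyte genes the same ratios were 1.14, 1.25 and 1.25, and for the matrix genes 1.21, 1.21 and 1.54. Kdr, a VEGF receptor of endothelial cells, had a blocked log2 fold change of 1.37 (SE 0.11, adjusted p = 0.00117 by edgeR). The part of the endothelial transcripts in the rise of Fn1, Sparc, Vtn, Rgs5, Igf2 and Ptgds was not tested.

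For the marker lists that follow, the shares over all genes tested were again 1.57% higher and 2.23% lower with the block. The choroid plexus and ependymal markers, which include the secretory epithelium that also transcribes Igf2, had 7 of 14 tested genes higher with the block and 0 lower. Their summed level was 585, 457 and 2152 CPM in the controls and 1264, 977 and 3141 CPM in the knockouts, library 3 at 4.13 and 2.80 times the mean of libraries 1 and 2, and 0 of the 15 listed were at 0 in any library. Not all followed the sum, as library 3 was highest in both genotypes for 10 of the 15. The ratio was above 2 in both genotypes for 9 of them, and the lowest ratio in control was 0.130. Of 13 astrocyte markers Gfap, Aqp4, Slc1a2 and Gja1 rose and 0 fell. Of 12 neuronal markers Tubb3, Neurod2 and Elavl3 fell and 0 rose. The 13 OPC and 12 microglial markers had no gene that passed by edgeR, with 3 and 1 at an unadjusted p under 0.05, and DESeq2 called 1 OPC marker, Ptprz1, as higher. Without the pair numbered 1, the blocked edgeR test called 3 OPC markers, Olig2, Sox10 and Nkx2-2, as lower. The OPC sum in library 3 was 1.09 times the mean of libraries 1 and 2 in control and 1.00 times in knockout, against 4.26 and 4.51 times for pericyte genes. The median of this ratio over the 13 OPC markers was lower, 0.866 in control and 0.769 in knockout, against 4.88 and 5.80 for pericyte genes. In both genotypes, library 3 was the highest for 0 of the 13 OPC markers. Without the pair numbered 3, the calls were 3 of the choroid plexus and ependymal, 3 of the astrocyte and 2 of the neuronal markers. The part of these other markers in the differences was not tested.

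**Figure D4:**
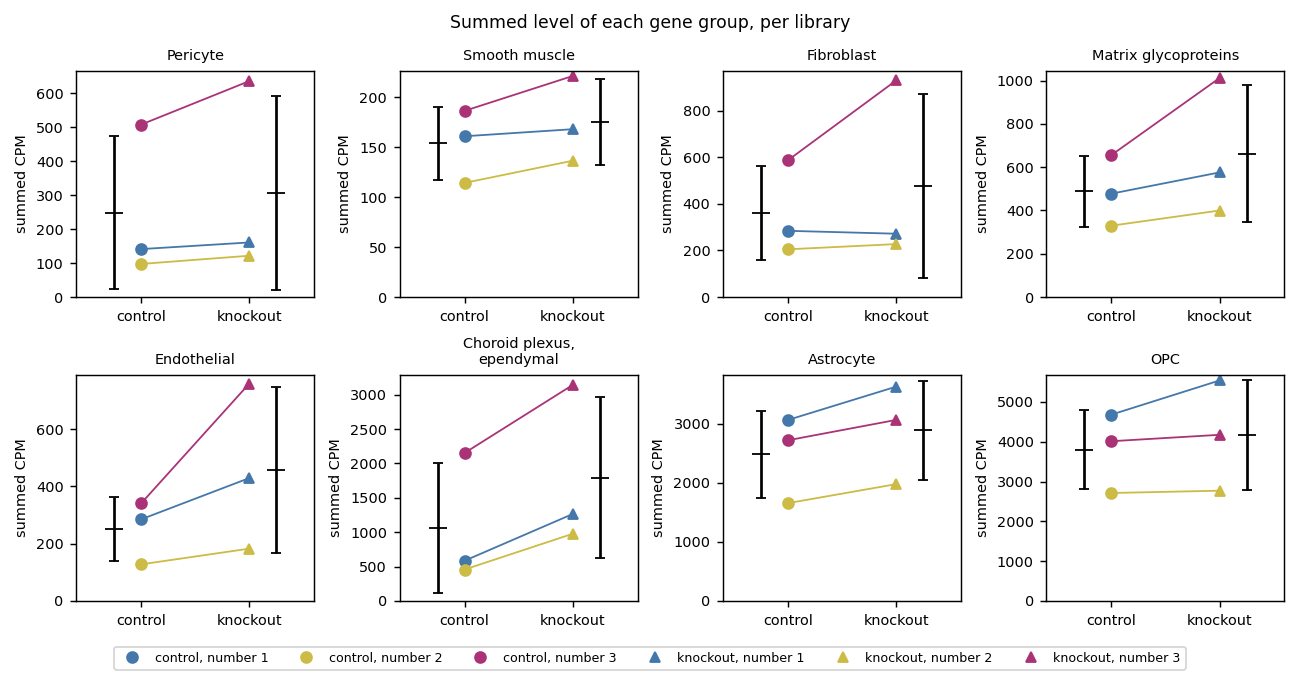
Summed CPM of each member group and of 4 marker lists per library, with lines joining same-numbered libraries and black bars giving mean ± SD (n = 3). Pericyte, fibroblast and choroid plexus sums are far higher in number 3 of both genotypes, and endothelial sums are higher in knockout in each pair. In every panel, OPC and astrocyte included, the sum is lowest in number 2 of both genotypes.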

How the data were processed

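Deposited were 6 tables of whole-number counts of read pairs, by gene symbol and without normalisation. The labels' protocols describe dUTP-marked stranded poly(A) libraries sequenced as read pairs. The submitters' processing notes name the mm10 build and the tools HISAT2 2.2.1, HTSeq 0.12.4 and DESeq2 1.26.0, with no role for any. What the sources used here do not give is the annotation, the parameters and the strand setting, so counts of overlapping genes are uncertain (9 of the 35 genes overlap another listed gene). Each table's 5 summary entries, 27.7% to 31.1% of read pairs, were dropped. Of the per-sample columns, 0 were unused.

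With genotype as the only term, TMM-scaled counts went into the two-sided quasi-likelihood test of edgeR 4.0.16 (R 4.3.3). Benjamini-Hochberg adjustment ran over the 15906 genes left by edgeR's expression filter, with calls at an adjusted p under 0.05. A second model added the replicate number as block. Whether the numbers pair the libraries was checked on the deviation of each library's log2 CPM from its group mean, which correlated at 0.712 for number 1, 0.683 for number 2 and 0.654 for number 3, and they were treated as pairs on that ground, the labels not saying what a number marks. The block took the common biological coefficient of variation from 0.315 to 0.104 and the residual degrees of freedom from 4 to 2. The test between numbers used the 2 number terms of that model. Printed CPM are over the gene counts of a library, and pair ratios carry 0.5 CPM added.

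The 35 genes, the other lists and the tests were chosen with earlier results of these data known. All 35 are named, with every library's value for genes called with or without the block and for the 4 of highest mean CPM in each group. Further genes shown per library were picked after their values were seen. From each other list up to 4 genes of smallest blocked adjusted p could be named, and Pdgfb, Lmod1, Mustn1, the OPC markers called by an alternative and 1 more endothelial marker were added after their values were seen. Alternatives were DESeq2 1.42.0, its size factors, library totals, no filter, and libraries or pairs left out. Gene positions and exon lengths came from the GENCODE annotation of GRCm38, matched by symbol.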

Additional observations from a re-analysis of the deposited data

How the results depend on the processing

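With the replicate block, edgeR called 6 of the 35 genes higher in knockout, also under library totals or DESeq2-type size factors, 7 with DESeq2 and 10 with no filter. Leaving out a pair gave between 2 and 7 higher, the 2 (Fn1 and Sparc) without replicate 3, where 1, Zic1, was lower. Without the block 0 were called under every setting run. With 1 library left out and no block, the median log2 fold change of the 35 ran from -0.50 (without knockout replicate 3) to 1.21 (without control replicate 3). In these settings the sign of single genes changed, from -0.73 to 1.10 for Pdgfrb, -1.29 to 2.26 for Rgs5, -0.92 to 1.76 for Vtn and -0.49 to 0.61 for Notch3. The log2 fold change ran from -0.12 to 0.52 for Acta2, -0.068 to 0.67 for Tagln, -0.65 to 0.84 for Myl9, -0.36 to 0.61 for Islr and -0.81 to 1.80 for Igf2. It ran from -0.076 to 0.79 for Sparc, -0.25 to 0.14 for Fbln1, -0.10 to 0.051 for Fbln2, -0.48 to 0.043 for Srf, -0.47 to 1.41 for Bgn and -0.11 to 0.64 for S1pr1. With the replicate block, the sign changed without replicate 2 for Acta2 (-0.018), Fbln1 (0.043) and Fbln2 (0.028), and without replicate 3 for Islr (-0.025). The causes were not tested. The test between numbers called 30 of the 35 genes with library totals or no filter and 27 with DESeq2, against 29. Genes under 1 CPM rest on fewer than 29 counts per library, the lowest count being 2.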
